A study of Arabidopsis thaliana with 75 samples.

Results

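The transcriptome of root epidermal cells from the mrh3 mutant was compared with that of wild type. All 6 arrays with these labels that were hybridised at Michigan were taken, 3 of mrh3 and 3 of wild type (WT), out of 75 arrays in the series, and all 21440 genes on the array entered the comparison. The mrh3 plants had the genotype mrh3-3 WER::GFP, in which mrh3-3 is an EMS-induced allele of AT5G65090 (MRH3, also called BST1). The WT plants were of the Columbia ecotype and carried WER::GFP as well. In both groups, 5-day-old seedlings were grown in continuous light at 23°C on MS medium with 1% sucrose, roots were cut about 2 mm from the tip, and GFP-positive cells were sorted from them. The WER::GFP reporter marks the developing epidermis and is stronger in non-hair than in hair cells, so both cell types contribute to each sample. The study brought the reporter into each mutant by crossing it to 1 WER::GFP line, whose only transgene is on chromosome 5. The mrh3 group is 1 allele, and the background in which it was induced and any backcrosses are not given in the sources used here.

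Root hairs are tubular outgrowths of single epidermal cells that elongate only at the tip. Tip growth needs localised delivery of membrane and wall material, and phosphoinositides, the phosphorylated forms of a membrane lipid, mark the growing tip and guide that delivery. MRH3 encodes a member of the inositol polyphosphate 5-phosphatases, enzymes that remove a phosphate from inositol phosphates or phosphoinositides, and its mutants make short or misshapen hairs. The comparison with WT asks which transcripts of the epidermis differ between the line mutated in this hair growth gene and WT. Whether a difference comes from the mutation itself or from the background of the line was not tested.

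The values are log2 intensities from Affymetrix ATH1 arrays, with 1 value per gene and array. With limma, each of the 21 groups on the 63 Michigan arrays was given its own mean, and a gene was called where mrh3 differed from WT by more than 2-fold at an adjusted p under 0.05 (Benjamini-Hochberg over 21440 genes). The labels name the replicates as biological. For each gene, the SE and p-value rest on 1 spread between replicates shared by all 21 groups, not on the mrh3 and WT arrays alone. Replicates correlated at 0.947 to 0.974 within mrh3 and at 0.979 to 0.987 within WT, and at 0.898 to 0.992 over all Michigan groups. The labels also place arrays in different series: all 3 mrh3 arrays are in the numbered series, against 1 of the 3 WT arrays, with 1 WT array in a series marked S and 1 in a series marked x. Because of this, mrh3 was also set against the mean of 7 other hair growth lines (cobl9, cow1, ire, lrx1, mrh1, mrh2 and rhd2, also with WER::GFP), whose 21 arrays are all in the numbered series. That comparison uses no WT array but shares the mrh3 arrays.

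The MRH3 transcript was present in the mutant. Its log2 values were 8.76, 9.77 and 8.20 in mrh3, against 9.03, 8.94 and 9.13 in WT. The mrh3 arrays lay on both sides of the WT arrays, with replicate 2 the highest of the 6 and replicate 3 the lowest. The difference was -0.12 ± 0.46 (log2, SE, n = 3 each, limma adjusted p = 0.925), with a 95% interval of -1.04 to 0.80. An EMS lesion need not change the transcript level, so this value does not check the genotype.

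Of the 21440 genes, 210 were called higher in mrh3 than in WT (0.979%) and 218 were called lower (1.02%), which together is 2.00% of the genes. At an unadjusted p under 0.05, 8.85% were higher and 8.91% lower. The median difference over all genes was 0.02 (log2), and the median SE was 0.31. The called genes had a median change of 1.55 among those higher and -1.57 among those lower, and 56 and 69 of them changed by more than 4-fold. The mrh3 arrays did not overlap the WT arrays for 203 of the 210 genes called higher and 214 of the 218 called lower. Over all genes, the arrays did not overlap for 11.1% with mrh3 higher and 12.9% with mrh3 lower. Both counts depend on the arrays used: without WT replicate 3 they were 89 and 98, without mrh3 replicate 1 they were 108 and 143, without mrh3 replicate 2 the lower count was 145, without mrh3 replicate 3 they were 298 and 307, and with the array series as a factor they were 67 and 93.

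The genes that fell in mrh3 were not spread evenly over the genome. Chromosome 5 holds 22.9% of the measured genes and 45.4% of those called lower (99 of 218), and it also holds 31.9% of those called higher (67 of 210). Chromosome 3 holds 19.9% of the measured genes and 24.3% of those called lower (53). Chromosomes 1, 2 and 4 had 34, 15 and 17 genes called lower, and 43, 25 and 32 called higher. Of the 69 genes called lower by more than 4-fold, 41 are on chromosome 5. Of the 80 genes of the plastid and mitochondrial genomes (3 and 77), 0 were called in the limma fit, with 1 at an unadjusted p under 0.05 and 0 by SAM (significance analysis of microarrays), a second test run on the 6 arrays. The share of lower calls on chromosome 5 was between 36.2% and 69.2% under all alternatives run for this comparison, the highest with only the numbered arrays.

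**Figure D1:**
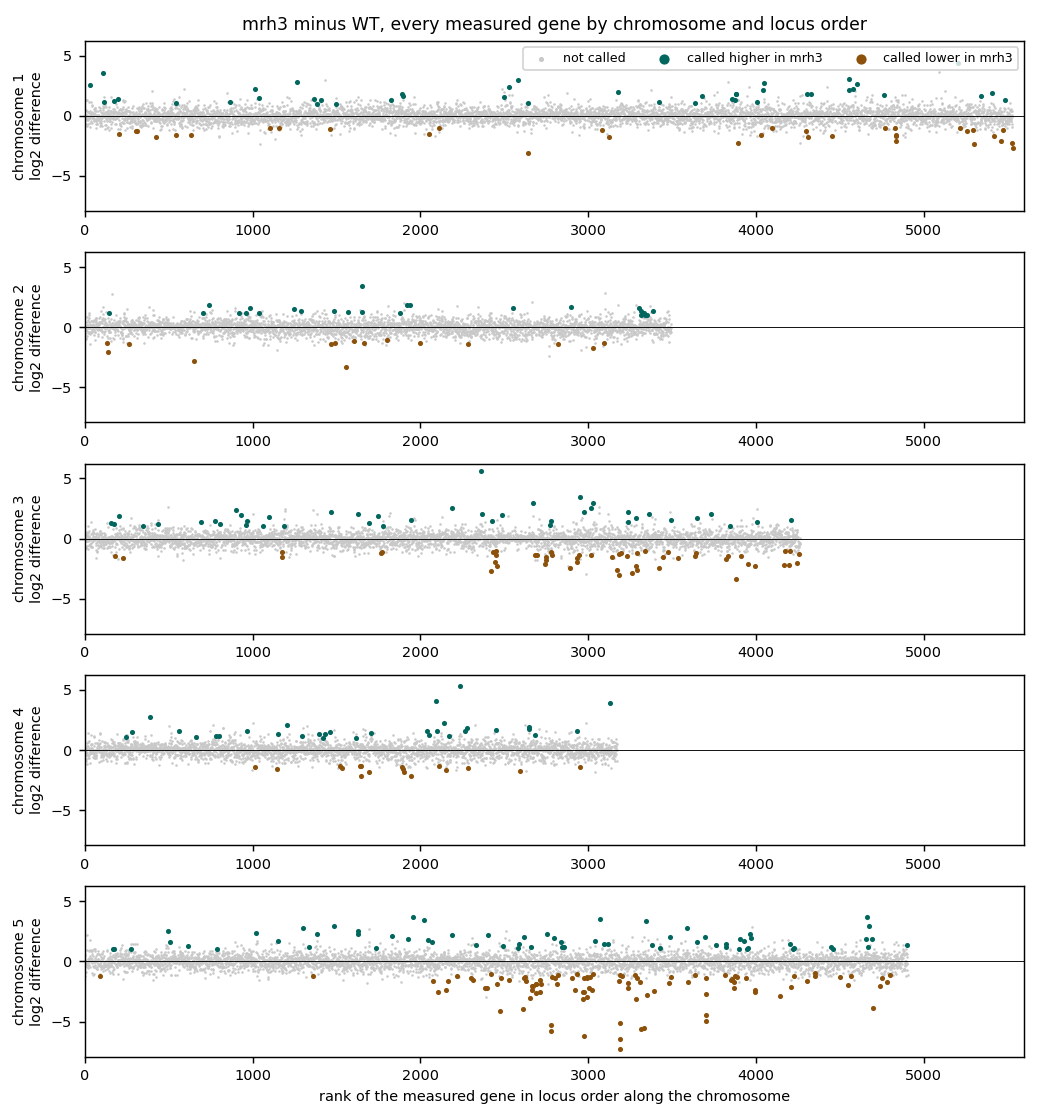
Log2 difference mrh3 minus WT of every measured gene (y axis), with genes in locus order along each of the 5 chromosomes (x axis, rank among measured genes), and genes called higher or lower in mrh3 in colour. The lower calls crowd the second part of chromosome 5, where the deepest point is CYP705A5 at -7.27, while the first 2000 measured genes of that chromosome hold 2 lower calls.

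The lower calls on chromosome 5 began past its first 2000 measured genes. In windows of 200 measured genes in locus order, 109 over the genome, the median window held 3 called genes. The first 10 windows of chromosome 5, AT5G01010 to AT5G26680, held 2 genes called lower and 19 called higher. From AT5G26700 to AT5G57590, the next 2000 measured genes held 83 called lower (4.15%) and 37 called higher. The window with the most calls in the genome, 21 of 200, was AT5G40760 to AT5G43340, with 17 lower and 4 higher. The next one, AT5G43360 to AT5G45810, had 14 lower and 3 higher.

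Together, the 4 windows from AT5G40760 to AT5G50390 are 3.73% of the measured genes and held 51 of the 218 genes called lower (23.4%). A stretch of 1600 measured genes on chromosome 3, AT3G28830 to AT3G60350, held 41 called lower (2.56%) and 17 called higher. The 17840 genes outside the chromosome 5 and chromosome 3 stretches had 94 called lower (0.527%) and 156 called higher (0.874%). The bounds of these stretches were set after the values were seen, so their counts are a description. Why the calls gather there was not tested, and the background of the line is not known. Both MRH3 and the WER::GFP transgene brought in by the cross are on chromosome 5, and the place of the transgene on it is not given. Whether that cross plays a part was not tested. The window that holds MRH3 itself, AT5G64300 to AT5G66410, lies beyond the chromosome 5 stretch and had 5 genes called higher and 4 called lower. On chromosomes 1, 2 and 4, the highest window held 8 called genes.

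The same windows stood out without the WT arrays. Against the 7 other hair growth lines, 291 genes were called higher in mrh3 (1.36%) and 221 lower (1.03%), and 99 of the 221 were on chromosome 5 and 54 on chromosome 3. The chromosome 5 stretch held 89 of them, and its inner 4 windows held 51. AT5G40760 to AT5G43340 had 20 genes lower in mrh3 than in these lines, and AT5G43360 to AT5G45810 had 16. Higher calls were more evenly placed, with 74, 34, 56, 40 and 87 on chromosomes 1 to 5.

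**Figure D2:**
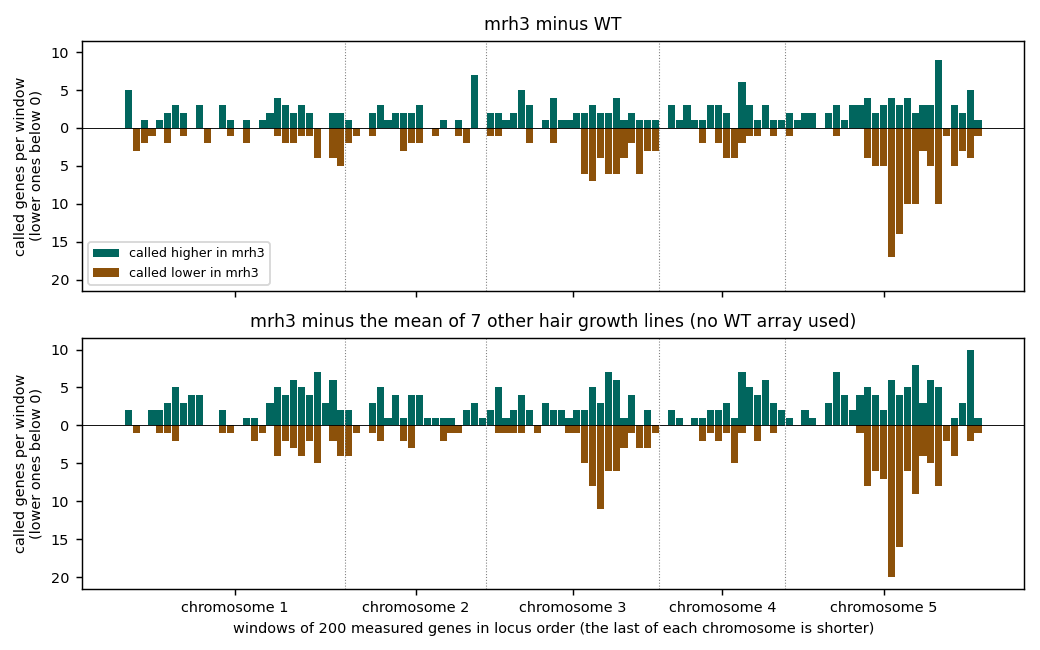
Number of called genes (y axis, higher in mrh3 above 0 and lower below 0) in windows of 200 measured genes in locus order along chromosomes 1 to 5 (x axis, dotted lines between chromosomes), for mrh3 minus WT (top) and mrh3 minus the mean of 7 other hair growth lines (bottom). The longest downward bars of both panels are the windows from AT5G40760 on chromosome 5, with 17 and 14 genes in the top panel and 20 and 16 in the bottom one.

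Some of these genes were at a level in mrh3 that no other Michigan array reached. For 37 genes (0.173%), all 3 mrh3 arrays were below all 60 other arrays, and 24 of the 37 are on chromosome 5, 18 of them from AT5G40760 to AT5G50390. For 38 genes (0.177%), all 3 were above the other 60, with 18 on chromosome 5, 7 on chromosome 4 and 6 on chromosome 3. AT5G45428 and AT5G45430, both among the 37, have identical values on the 6 arrays of mrh3 and WT and are 1 measurement.

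The largest decreases of all were in genes for a root triterpene. Thalianol is made from oxidosqualene by THAS1 (thalianol synthase) and modified by CYP708A2 (thalianol hydroxylase) and CYP705A5 (thalian-diol desaturase), whose genes lie next to one another on chromosome 5. CYP705A5 (AT5G47990) had log2 values of 3.67, 3.69 and 4.72 in mrh3, against 11.27, 11.22 and 11.40 in WT. THAS1 (AT5G48010) had 3.39, 3.80 and 4.92 in mrh3, against 10.46, 10.38 and 10.60 in WT. In both genes all 3 mrh3 arrays were below 5 and all 3 WT arrays above 10. CYP705A5 was lower in mrh3 by -7.27 ± 0.29 (log2, SE, n = 3 each, limma adjusted p = 1.77e-24), and THAS1 was lower by -6.45 ± 0.39 (limma adjusted p = 5.51e-17).

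The gene on the near side of CYP705A5, AT5G47980, had values of 3.51, 2.56 and 3.21 in mrh3, against 8.03, 7.53 and 9.18 in WT. It too fell in mrh3, by 5.15 on the log2 scale (SE 0.45, limma adjusted p = 2.46e-11). The gene between CYP705A5 and THAS1 behaved otherwise: CYP708A2 (AT5G48000) had 9.16, 10.42 and 9.56 in mrh3, against 10.79, 10.64 and 11.19 in WT. Its decrease of -1.16 ± 0.32 passed the test (limma adjusted p = 0.0329), but the call was lost in 9 of 15 alternatives. AT5G47950, a few loci away, had a difference of -0.12 ± 0.33 (limma adjusted p = 0.895).

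No other Michigan group had comparably low values of CYP705A5 or THAS1. What lowers these array signals in mrh3, the mutation or the background of the line, was not tested. Outside mrh3, CYP705A5 lay between 9.27 and 11.80 on the 60 arrays and THAS1 between 8.04 and 11.43, and the lowest group mean was that of cpc try in both, at 9.80 and 8.75. AT5G47980 had its lowest other group mean in ttg, at 6.05. The genes for marneral, a second root triterpene, are also grouped on chromosome 5 and did not pass the test: MRN1 (marneral synthase) differed by -0.13 ± 0.49, CYP71A16 by -0.10 ± 0.37 and CYP705A12 by 0.44 ± 0.39. The marneral genes and CYP708A2 and AT5G47950 were picked for comparison after their values were seen.

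Of the 15 largest decreases, 13 are on chromosome 5. AT5G45500 had 3.87, 3.37 and 4.25 in mrh3, against 10.20, 9.94 and 9.95 in WT, a decrease of -6.20 ± 0.81 (limma adjusted p = 8.14e-07). AT5G49640 had 3.96, 4.24 and 5.34 in mrh3, against 10.27, 9.69 and 10.12 in WT, a decrease of -5.51 ± 0.48 (limma adjusted p = 2.39e-11). For AT5G49640, as for CYP705A5, THAS1 and AT5G47980, all 60 other arrays were above mrh3. The remaining genes of this rank had differences of -5.80 (AT5G43030), -5.66 (AT5G49440), -5.27 (AT5G43040, the neighbour of AT5G43030), -4.95 (AT5G54020), -4.49 (AT5G54040), -4.15 (AT5G39080), -3.93 (AT5G40860) and -3.90 (HTR11, a histone H3 gene). The 15 are completed by AT3G58730 (VHA-D, a subunit of the vacuolar proton pump) at -3.40 and AT2G25450 at -3.32. AT2G25450 had 1 mrh3 array near WT, with 5.94, 9.27 and 5.40 in mrh3, against 9.62, 10.67 and 10.28 in WT.

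Several of these genes were also low in a line mutated in a fate gene or in csld3. AT5G43030 averaged 2.78 in mrh3, against 8.57 in WT, and averaged 2.82 in ttg and 3.09 in cpc try. AT5G45500 averaged 3.83 in mrh3, against 10.03 in WT, with 4.87 in ttg. AT5G54020 averaged 3.66 in mrh3 and 3.37 in cpc try, against 8.61 in WT. VHA-D averaged 7.17 in mrh3 and 6.58 in csld3, against 10.57 in WT. The 21 arrays of the 7 other hair growth lines did not overlap the mrh3 arrays in any of these genes. The cause of the low values was not tested in any of these lines.

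**Figure D3:**
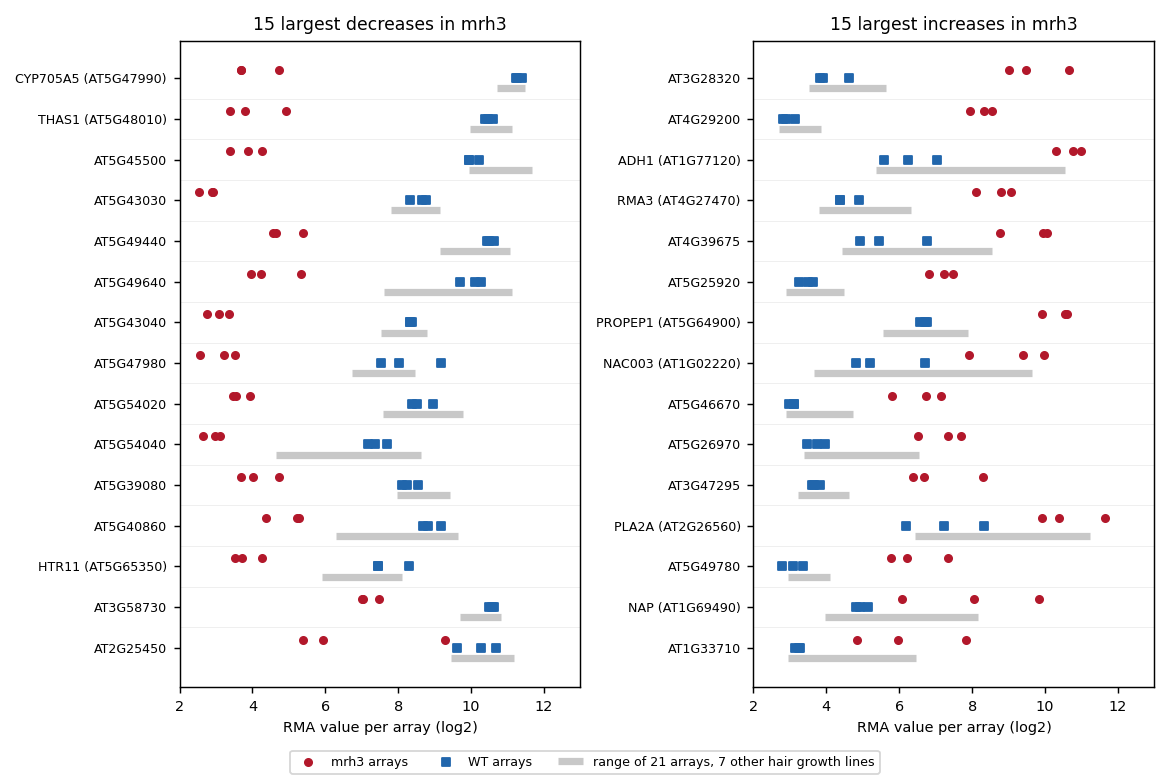
Log2 RMA values per array (x axis) of the genes with the 15 largest decreases (left) and the 15 largest increases (right) in mrh3 relative to WT, with mrh3 arrays as circles, WT arrays as squares and a grey bar for the range of the 21 arrays of 7 other hair growth lines. By the rule that picked the 30 genes, the mrh3 circles and WT squares do not overlap. For CYP705A5 the mrh3 circles lie between 3.67 and 4.72 and the WT squares between 11.22 and 11.40.

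The largest increases came from all 5 chromosomes and several were of genes at the bottom of the scale in WT. AT3G28320 had 9.48, 9.01 and 10.65 in mrh3, against 4.61, 3.81 and 3.92 in WT, an increase of 5.60 ± 0.87 (log2, SE, n = 3 each, limma adjusted p = 3.13e-05). It was also high in other groups outside the hair growth lines, with a mean of 11.39 in ttg. AT4G29200 had 8.31, 8.53 and 7.95 in mrh3, against 3.14, 2.88 and 2.82 in WT, an increase of 5.32 ± 0.19 (limma adjusted p = 1.16e-25). In contrast to AT3G28320, AT4G29200 was low in all 60 other Michigan arrays, at 2.69 to 3.84.

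Several of the largest increases were in genes with a well known role. PROPEP1 (AT5G64900) encodes the precursor of a peptide that elicits defence responses, and had 9.92, 10.55 and 10.59 in mrh3, against 6.76, 6.72 and 6.58 in WT. It rose by 3.67 ± 0.40 (limma adjusted p = 1.22e-08), and all 60 other arrays, up to 9.59, were below the mrh3 arrays. RMA3 (AT4G27470), a RING-type ubiquitin ligase, had 8.78, 9.07 and 8.12 in mrh3, against 4.91, 4.38 and 4.36 in WT, and rose by 4.11 ± 0.44 (limma adjusted p = 1.22e-08). ADH1 (AT1G77120), the alcohol dehydrogenase of fermentation, had 10.77, 10.31 and 10.98 in mrh3, against 5.59, 7.04 and 6.23 in WT. It rose by 4.41 ± 0.99 (limma adjusted p = 0.00663), but the call was lost with the array series as a factor and with the numbered arrays alone.

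The other increases of this rank were 3.87 (AT4G39675), 3.70 (AT5G25920), 3.52 (NAC003), 3.50 (AT5G46670), 3.45 (AT5G26970), 3.42 (AT3G47295), 3.40 (PLA2A, a patatin-like phospholipase A), 3.37 (AT5G49780), 3.02 (NAP, a NAC transcription factor of leaf senescence) and 3.00 (AT1G33710). The calls of NAC003, PLA2A and NAP were lost in 7, 5 and 10 of 15 alternatives. In NAC003 the 21 arrays of the other hair growth lines ran from 3.67 to 9.65 with a median of 7.10, against 9.40, 7.92 and 9.96 in mrh3, so the mrh3 arrays fall within or just past their range. Its difference from these lines did not pass the test (2.03, limma adjusted p = 0.112).

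Few of the study's core root hair genes passed the limma test in mrh3, fewer than the study itself reported. The study used the same nominal thresholds of 2-fold and 0.05, but with q-values of its own. The study chose 208 core genes by their levels in the ttg, cpc try, gl3 egl3 and wer myb23 lines, with no mrh3 or WT array. Of these, 54 are non-hair genes and the others are hair genes. In mrh3 relative to WT, 7 of the hair genes were called lower (4.55%, against 1.02% of all genes) and 0 were called higher by limma, with 29 lower and 2 higher at an unadjusted p under 0.05, and 14 lower and 0 higher by SAM. The median difference of the hair genes was -0.25, against 0.02 over all genes, and 103 lay below 0. By size alone, 35 were more than 2-fold lower (22.7%, against 3.60% of all genes) and 1 was more than 2-fold higher (against 3.72%). In these sorted samples, fewer hair cells and less hair gene RNA per cell cannot be told apart.

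The shift was seen in 2 of the 3 mrh3 arrays. Set against the WT mean of each gene, the median hair gene was -0.53 in mrh3 replicate 1, 0.20 in replicate 2 and -0.51 in replicate 3, against 0.00, -0.02 and 0.02 in the WT replicates. Without mrh3 replicate 2, 9 hair genes were called lower, and without WT replicate 1, 3 were. Without mrh3 replicate 3 or without WT replicate 3 the count was 4. The mrh3 and WT arrays did not overlap, with mrh3 lower, for 29 hair genes (18.8%, against 12.9% of all genes). Of the 138 hair genes outside the chromosome 5 and 3 stretches, 3 were called lower (2.17%, against 0.527% of all genes outside them). By size alone, 27 of the 138 were more than 2-fold lower (19.6%, against 3.60% of all genes).

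The 7 hair genes that fell include wall genes. EXT11 (AT5G49080), an extensin of the cell wall, had 3.76, 5.05 and 3.27 in mrh3, against 7.38, 6.34 and 7.72 in WT, and fell by 3.12 (SE 0.62, limma adjusted p = 0.00159). XTH12 (AT5G57530) and XTH13 (AT5G57540) are adjacent genes of xyloglucan endotransglucosylase/hydrolases, enzymes that cut and rejoin wall xyloglucan. XTH12 had 6.97, 9.18 and 8.09 in mrh3, against 10.50, 10.30 and 10.99 in WT, a decrease of -2.51 ± 0.69 (limma adjusted p = 0.0325). XTH13 had 6.93, 9.43 and 7.72 in mrh3, against 10.76, 9.77 and 10.72 in WT, a decrease of -2.39 ± 0.69 (limma adjusted p = 0.0454). In EXT11, XTH12 and XTH13 alike, mrh3 replicate 2 was the mrh3 array nearest to WT. The XTH12 call was lost in 8 of 15 alternatives and the XTH13 call in 11, with the array series as a factor and with most single arrays left out among them. As neighbours of near identical sequence, XTH12 and XTH13 can share signal on the array.

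The other 4 were AT5G40860 (-3.93), AT1G34330 (-3.07, annotated by the study as a pseudogene of a peroxidase), AT4G20480 (-1.34) and AT2G02630 (-1.31, a DC1 domain protein). AT5G40860, XTH12, XTH13 and EXT11 lie in the chromosome 5 stretch. AT4G20480 had 8.30, 6.58 and 8.85 in mrh3, against 9.50, 9.08 and 9.18 in WT. AT2G02630 had 6.10, 6.38 and 5.49 in mrh3, against 7.44, 7.09 and 7.37 in WT. The largest increases among the hair genes were AT4G22640 (1.32), SQP2 (0.89), AT3G05170 (0.86), NPC3 (0.84) and AT4G14610 (0.75), with limma adjusted p-values from 0.107 to 0.337.

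**Figure D4:**
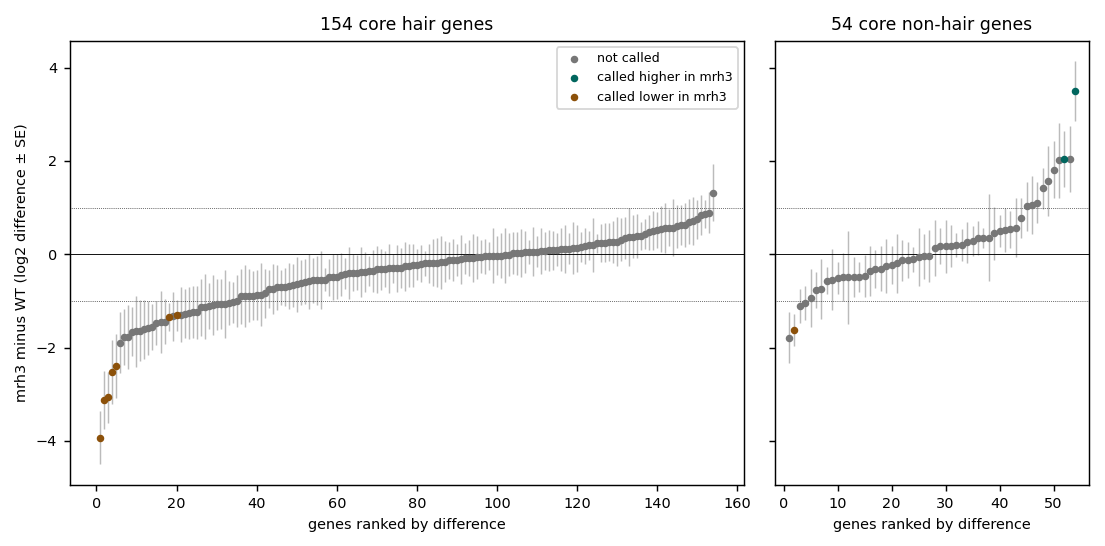
Log2 difference mrh3 minus WT with its SE (y axis) for the core hair genes (left) and the 54 core non-hair genes (right), each ranked by the difference (x axis), with called genes in colour and dotted lines at 2-fold. The hair genes reach from -3.93 to 1.32 with 7 called lower, and the non-hair genes from -1.79 to 3.50 with 2 called higher and 1 called lower.

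The 6 hair genes that the study grouped as cluster N, for being reduced in several hair growth lines, mrh3 among them, were XTH12, XTH13, XTH26, FLA6 (a fasciclin-like arabinogalactan protein) and the peroxidase genes AT1G34510 and RHS18. All 6 lay below 0 in mrh3 relative to WT, with a median of -1.83, and XTH12 and XTH13 passed the test. The others were FLA6 at -1.89 (limma adjusted p = 0.0999), RHS18 at -1.77 (0.157), XTH26 at -1.65 (0.245) and AT1G34510 at -1.12 (0.416). The study picked these genes on these samples, so their direction is not independent evidence. Against the 7 other hair growth lines, their median was -0.52 and 0 of 6 were called by limma, with 2 at an unadjusted p under 0.05.

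The median of the non-hair genes lay near 0, with changes past 2-fold in both directions. Of the 54, 2 were called higher (AT5G46670 and AT5G40960) and 1 lower (AT3G54400), where 0.979% and 1.02% of all genes were, with a median of 0.05 and 27 below 0. By size alone, 10 were more than 2-fold higher (18.5%, against 3.72% of all genes) and 4 more than 2-fold lower (7.41%, against 3.60%). At an unadjusted p under 0.05, 8 were higher and 4 lower, and by SAM 5 were higher and 1 lower. AT5G46670, which encodes a zinc finger protein rich in cysteine and histidine, had 7.14, 6.74 and 5.81 in mrh3, against 2.98, 3.12 and 3.11 in WT (3.50 ± 0.65, limma adjusted p = 0.000529). AT5G40960 had 6.60, 6.20 and 5.03 in mrh3, against 3.65, 3.93 and 4.14 in WT (2.04 ± 0.60, limma adjusted p = 0.0496), and its call was lost without any one array other than mrh3 replicate 3. Both genes lie in the chromosome 5 stretch, and of the 43 non-hair genes outside the stretches, 0 were called in either direction by limma, with 7 at an unadjusted p under 0.05 and 2 by SAM. AT3G54400, an aspartyl protease, fell by 1.62 (SE 0.35, limma adjusted p = 0.00486) and lies in the chromosome 3 stretch.

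Among the further non-hair genes, GSTU11 (a glutathione transferase, 2.04, limma adjusted p = 0.0998), AT3G16800 (a protein phosphatase 2C, 2.01, 0.174) and AT5G47550 (a cysteine protease inhibitor, 1.81, 0.0895) were the highest that did not pass. The lowest that did not pass were XTH33 (-1.79, 0.0603), AT5G66590 (-1.11, 0.094), AT4G32460 (-1.05, 0.101) and XTH17 (-0.94, 0.448). The spread between replicates was wide for some of these. AT3G16800 had 7.38, 5.69 and 9.45 in mrh3, against 4.19, 6.79 and 5.51 in WT, with overlap of the groups.

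The genes around MRH3 in phosphoinositide metabolism showed no called change against WT. Of 14 measured inositol polyphosphate 5-phosphatases, 0 were called by limma, 3 had an unadjusted p under 0.05 and 0 were called by SAM. Their median was 0.19, with a range of -0.89 to 0.76. AT2G37440 (5PTASE8), another member of the family, had 8.72, 10.37 and 9.06 in mrh3, against 9.02, 8.84 and 8.51 in WT. Of 29 genes for phosphoinositide kinases, phosphatases, phospholipases C and lipid carriers, 23 lay above 0 and the median was 0.34, but 0 were called by limma or by SAM. At an unadjusted p under 0.05 there were 10, all higher in mrh3, against 8.85% of all genes. The largest difference in this list, 1.59, did not pass the test. PLC5 (AT5G58690) and PLC4 (AT5G58700), adjacent genes of phospholipase C, which cleaves phosphoinositides, passed the p threshold but not 2-fold. PLC5 had 9.25, 9.60 and 9.25 in mrh3, against 8.37, 8.62 and 8.13 in WT, a difference of 0.99 ± 0.26 (limma adjusted p = 0.0247) that fell just short of 2-fold. All 3 mrh3 values of PLC5 were above the other 60 arrays, the highest of which was 9.23.

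PLC4 had 10.17, 10.08 and 9.43 in mrh3, against 8.83, 9.10 and 8.86 in WT, a difference of 0.96 ± 0.26 (limma adjusted p = 0.0347). PIP5K1, a kinase that makes the phosphoinositide of the growing tip, differed by 1.26 ± 0.41 (limma adjusted p = 0.0845), and PIP5K3, the kinase best known from root hairs, by -0.60 ± 0.36 (0.391). COW1, the phosphatidylinositol transfer protein mutated in cow1, differed by 0.02 ± 0.46. Both PIP5K1 (1.06, limma adjusted p = 0.0365) and COW1 were called higher against the other hair growth lines, which include cow1. The 12 genes of inositol and inositol phosphate metabolism had a median of -0.20, with 0 called by limma or by SAM and 0 at an unadjusted p under 0.05.

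None of the listed regulators of cell fate or genes of tip growth was called by limma. The 15 measured fate regulators had a median of 0.08 and 0 calls by limma or by SAM, with 2 at an unadjusted p under 0.05. RHD6, which promotes hair initiation, had 8.94, 10.11 and 10.10 in mrh3, against 9.68, 9.69 and 9.41 in WT (0.12 ± 0.33), and GL2, which acts in non-hair cells, differed by 0.13 ± 0.60. WER, whose promoter drives the reporter, was at -0.84 (limma adjusted p = 0.0674). Of 41 genes of the tip growth machinery, 29 lay below 0, the median was -0.14 and 0 were called by limma, with 5 at an unadjusted p under 0.05 and 2 by SAM. RHD2, the NADPH oxidase of the hair tip, had 0.39 ± 0.30, and SHV2 (COBL9), a wall protein of hairs, had -0.32 ± 0.50.

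In the wall gene families, 5 genes were called. Of 33 xyloglucan endotransglucosylase/hydrolase genes, 3 were called lower (XTH12, XTH13 and XTH31 at -1.36, where 1.02% of all genes were) and the family median was 0.23. Of 31 expansins, EXPA21 alone was called (-1.41 ± 0.36, limma adjusted p = 0.0204). It was dim, with 3.03, 3.07 and 3.34 in mrh3, against 4.74, 4.28 and 4.66 in WT. Its call was lost in 5 of 14 alternatives. The expansin median was -0.26, and in 12 of the 31 the mrh3 arrays lay below all WT arrays, against 12.9% of all genes. At an unadjusted p under 0.05, 8 expansins were lower (against 8.91% of all genes) and 0 higher, and SAM called 5 lower. The lowest expansin, at -2.38, was not called by limma. Of 33 genes named as extensins, LRX, PRP or PERK proteins, EXT11 alone was called, with a median of 0.03. The arabinogalactan proteins (46 genes, median -0.04) and the pectin methylesterases and their inhibitors (19 genes, median 0.00) had 0 calls by limma or by SAM, with 7 of their 65 genes at an unadjusted p under 0.05.

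In the flavonoid pathway, 1 enzyme gene fell and a later one rose. F3H (AT3G51240), flavanone 3-hydroxylase, had 7.07, 5.52 and 7.71 in mrh3, against 9.53, 9.77 and 9.52 in WT, and fell by 2.84 (SE 0.47, limma adjusted p = 8.69e-05). DFR (AT5G42800), dihydroflavonol reductase, which uses a product of F3H, had 5.10, 4.29 and 6.03 in mrh3, against 2.56, 3.10 and 3.00 in WT, and rose by 2.25 (SE 0.41, limma adjusted p = 0.000497). In both genes the mrh3 arrays also differed from the 7 other hair growth lines, by -2.57 and 1.97. TT4, the chalcone synthase at the entry of the pathway, was at -1.54 (limma adjusted p = 0.23), and the median of the 12 measured genes was -0.24. F3H lies in the chromosome 3 stretch and DFR in the chromosome 5 stretch.

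In the hormone and nutrient lists, 2 single genes were called. JAZ5, a repressor of jasmonate signalling that jasmonate itself induces, had 10.13, 10.42 and 9.49 in mrh3, against 8.19, 8.86 and 8.71 in WT, and rose by 1.43 (SE 0.39, limma adjusted p = 0.0333). It was the 1 called gene of 17 for jasmonate synthesis and response, of which 15 lay above 0 with a median of 0.42. At an unadjusted p under 0.05, 4 of the 17 were higher and 0 lower, against 8.85% and 8.91% of all genes. In 7 of the 17 the mrh3 arrays lay above all WT arrays, against 11.1% of all genes. PAP17, a purple acid phosphatase of phosphate starvation, had 9.46, 9.13 and 8.68 in mrh3, against 6.56, 7.25 and 6.74 in WT, and rose by 2.24 (SE 0.63, limma adjusted p = 0.0408). It was the 1 called gene of 15 for phosphate transport and starvation, with a median of 0.14. Of these 15, 4 were higher and 1 lower at an unadjusted p under 0.05. The JAZ5 and PAP17 calls were each lost in 7 of 15 alternatives, with the array series as a factor among them. The lists for iron acquisition (16 genes), heat shock (9), wounding and touch (10), camalexin and pathogen response (8), the ER body (4), auxin (9) and ethylene (11) had medians from -0.29 to 0.26. Of their 67 genes, 0 were called by limma or by SAM, and 13 had an unadjusted p under 0.05.

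All 17 measured genes of the cell cycle and DNA replication lay below 0 in mrh3 relative to WT, with a median of -0.54, and 2 of them passed the test, where 1.02% of all genes were called lower. PCNA1, the sliding clamp of DNA polymerase, had 7.93, 8.17 and 8.39 in mrh3, against 9.70, 9.85 and 9.82 in WT, and fell by 1.63 (SE 0.47, limma adjusted p = 0.0469). SYP111 (KNOLLE), the syntaxin of cytokinesis, had 8.15, 8.17 and 8.37 in mrh3, against 9.83, 9.75 and 9.81 in WT, and fell by 1.56 (SE 0.42, limma adjusted p = 0.0302). The PCNA1 call was lost in 9 of 15 alternatives, the replicate block and each single array left out among them, and the SYP111 call in 7. The log2 of the summed level of the list was 12.3 to 12.6 in mrh3, against 13.0 to 13.5 in WT, and 11.4 to 13.6 on the 21 arrays of the other hair growth lines. Against those lines, the median was -0.35 and 0 of 17 were called by limma, with 1 at an unadjusted p under 0.05.

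**Figure D5:**
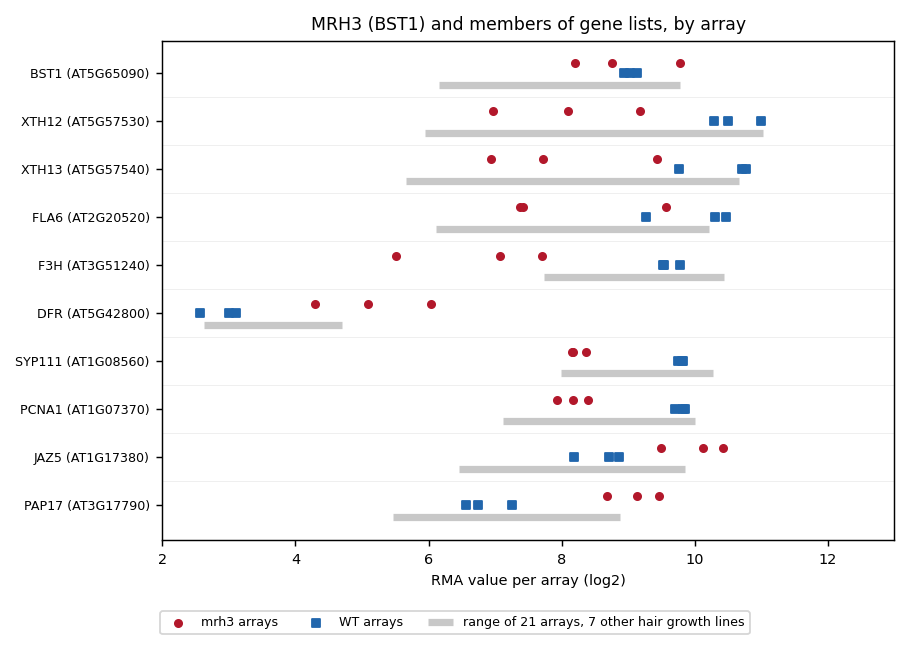
Log2 RMA values per array (x axis) of MRH3 (as BST1), 3 cluster N genes, F3H and DFR, SYP111 and PCNA1, JAZ5 and PAP17, with mrh3 arrays as circles, WT arrays as squares and a grey bar for the range of the 21 arrays of 7 other hair growth lines. The MRH3 values of mrh3 lie on both sides of the WT values, SYP111 and PCNA1 are lower in all 3 mrh3 arrays than in WT but within the grey bars, and DFR reaches 6.03 in mrh3, against at most 3.10 in WT.

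Several lists of tissue markers also had medians below 0 in mrh3 relative to WT, as the cell cycle list and the hair genes did. The 4 lateral root cap markers had a median of -0.70 and a summed level (log2) of 11.2 in all 3 mrh3 arrays, against 11.4 to 12.6 in WT and 10.6 to 12.1 in the other hair growth lines. The 10 cortex and endodermis markers had a median of -0.53, with sums of 7.80 to 9.26 in mrh3, against 8.54 to 9.17 in WT, and CO2 was among those under a log2 value of 5. The 8 epidermis markers had a median of -0.18, with sums of 12.2 to 12.6 in mrh3, against 12.8 to 13.0 in WT. The 11 stele markers (median 0.17, sums of 10.2 to 10.4 in mrh3, against 10.2 to 10.6 in WT) and the 3 stem cell niche markers (median -0.45, sums of 7.77 to 8.11 in mrh3, against 7.88 to 8.65 in WT) overlapped. SHR, APL, VND7, CESA7, CESA8 and PHO1 of the stele and ATML1 and PDF2 of the epidermis were under 5 as well. Of the 36 markers, 0 were called by limma, 4 had an unadjusted p under 0.05 and 1 was called by SAM, and the part of these cell types in the results was not tested.

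The comparison with the 7 other hair growth lines, which do not include csld3, shows where mrh3 differs from those lines. CYP705A5 (-7.13), AT5G45500 (-6.99), THAS1 (-6.56), AT5G43030 (-5.84), AT5G49640 (-5.66), AT5G49440 (-5.55), AT5G54020 (-5.15) and AT5G43040 (-5.14) had the largest decreases, with limma adjusted p-values from 2.26e-29 to 8.81e-08. AT3G28320 (5.55), AT4G29200 (5.24), AT5G25920 (3.75), AT5G19100 (3.70), RMA3 (3.66), PROPEP1 (3.59), AT5G46670 (3.25) and AT4G39675 (3.20) had the largest increases. By the rule that picked these 16 genes, the 3 mrh3 arrays lay outside the range of the 21 arrays. Between mrh3 and csld3, AT5G46670 (-0.55) and AT3G28320 (1.98) were not called, while the other genes of the 16 were. AT5G19100 had 10.29, 8.93 and 10.09 in mrh3, against 5.16 to 7.03 in these lines and 6.51, 6.99 and 6.87 in WT. Of the 291 and 221 genes called, the arrays did not overlap for 97 and 108, and the share over all genes was not counted.

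Of the core hair genes, 10 were lower in mrh3 than in these lines and 1, COW1, was higher, with a median of -0.11 over all core hair genes. The count of 10 was 3 without mrh3 replicate 1 and 5 without mrh3 replicate 3. Of all genes, 2.39% were called in that comparison. COW1 differed by 1.29, and the lines it is set against include cow1, in which COW1 averaged 3.51, against 10.68 in mrh3. XTH12 and XTH13 did not pass the test against these lines (-1.13 and -1.16, limma adjusted p = 0.245 and 0.232). AT5G40860 (-3.83), EXT11 (-1.90) and AT1G34330 (-1.90) remained the lowest. Between mrh3 and csld3, AT5G40860 was called (-2.92), but EXT11 (-0.31) and AT1G34330 (-0.27) were not. In the jasmonate list, 4 of 17 genes were called higher in mrh3 than in these lines and 0 lower, where 1.36% and 1.03% of all genes were. The 4 were JAZ5 (1.78), JAZ9 (1.73), LOX3 (1.56) and LOX4 (1.08). LOX3, a lipoxygenase of jasmonate synthesis, had 8.81, 9.33 and 9.13 in mrh3, against 6.14 to 9.41 in these lines.

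The lines rhd2 and csld3 were also compared with mrh3 singly. In mrh3 relative to rhd2, a line with very short hairs, 89 genes were called higher (0.415%) and 124 lower (0.578%), and 67 of the 124 are on chromosome 5 and 31 on chromosome 3. Of the hair genes, 3 were lower in mrh3 than in rhd2, with a median of 0.04. In mrh3 relative to csld3, a line whose mutated gene encodes a cellulose synthase-like enzyme of the hair tip, 858 genes were called higher (4.00%) and 488 lower (2.28%), or 6.28% in all. There, 18 hair genes were higher in mrh3 than in csld3 and 2 were lower, with a median of 0.62. The count against csld3 rests on single arrays, as it was 452 in both directions without csld3 replicate 1, 1843 without csld3 replicate 3 and 828 without mrh3 replicate 3. The count against rhd2 was 118 without rhd2 replicate 2.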

How the data were processed

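RNA from sorted GFP-positive root tip cells was hybridised to Affymetrix ATH1 arrays. The authors deposited log2 expression values made with RMA (robust multi-array averaging, named in the submitters' processing notes without a version) and quantile normalization over the arrays, with 1 value per gene. Such values compress large changes, and the small number of arrays limits the precision. The 21504 rows hold 64 control probe sets, which were not used, and 21440 loci. Of the loci, 219 share identical values on the 6 arrays with another locus (105 sets). Probe annotation and genome build are not given in the sources used here, so locus numbers gave the gene order, and names came from the RefSeq table of TAIR10.1, in which 21222 loci matched. The 12 arrays from Duke were not used.

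Tests used limma 3.58.1 in R 4.3.3, with 1 mean per group over 63 arrays, 42 residual degrees of freedom and Benjamini-Hochberg adjustment over all genes. The fit was tested on simulated data. Same-numbered mrh3 and WT arrays deviated from their group means with correlations of 0.04, 0.04 and 0.24, against -0.15 to 0.10 for different numbers. With so few arrays these values cannot show whether the numbers pair the samples, and the main fit did not pair them. SAM used all 20 labelings of the 6 arrays.

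The members, gene lists and core genes were chosen with earlier results of these data known. Named genes were MRH3, the 15 largest called changes in each direction whose arrays do not overlap, the called members of each list and up to 2 others, the 5 largest changes in each direction among core hair and non-hair genes, the 6 cluster N genes, and the 8 largest changes in each direction against the other hair growth lines. Called core genes, PLC4 and PLC5 (past the p threshold but not the fold), CYP708A2, AT5G47950, the marneral genes, AT5G45428 and AT5G45430 were added after their values were seen, as were the windows. A peroxidase list made by name was left out because the match took in other proteins.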

Additional observations from a re-analysis of the deposited data

Results flagged for a closer look

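In 14 core genes, mrh3 differed from the mean of the 7 other hair growth lines by the limma test of that difference (over 2-fold, adjusted p under 0.05 over all genes). Of the hair genes, AT5G40860 was lower by -3.83, EXT11 by -1.90, AT1G34330 by -1.90, AT2G17590 (a DC1 domain protein) by -1.62, AT2G39690 by -1.52, AT4G20480 by -1.43, AT2G02630 by -1.33, MES15 (a carboxylesterase) by -1.29, RHS8 by -1.28 and RSH3 (AT1G16440, a kinase) by -1.22, and COW1 was higher by 1.29. Of the non-hair genes, AT5G40960 was higher by 1.54, GSTU11 by 1.90 and AT5G46670 by 3.25. In each of the 14, all 3 mrh3 arrays lay on that side of the median of the 21 arrays, which the rule that picked them makes likely. In 4 of them, AT5G40860, AT4G20480, AT2G02630 and AT5G46670, all 3 lay outside the range of the 21 arrays. The share of all genes that do so was not counted.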

How the results depend on the processing

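Alternatives were run singly for some of the genes named here, but not for AT4G20480 and AT2G02630, among others. Against the other hair growth lines, they were run singly only for the genes with the largest changes. Among the genes for which they were run, no alternative turned the direction of a called gene. The counts of genes higher and lower in mrh3 than in WT, given in that order, were 59 and 89 with only the groups compared in the fit, 67 and 93 with the array series as a factor, 40 and 52 with numbered arrays only (1 WT array, assumed to vary like the other groups), 399 and 457 at an unadjusted p under 0.01, and 277 and 360 by SAM. With 1 array left out they were 89 to 298 and 98 to 307. Of the 218 genes called lower, 86 kept their call with the array series as a factor and 50 with numbered arrays only. The replicate block gave 203 and 214. For core hair genes lower in mrh3, 4 were called with the array series as a factor, 1 with numbered arrays only, 14 at the unadjusted p and 14 by SAM, and 3 to 9 with 1 array left out. For core non-hair genes higher in mrh3, 1 was called with the replicate block, 1 with the array series, 1 after quantile normalization, 1 with numbered arrays only, 0 without dim genes, 5 at the unadjusted p and 5 by SAM, and 1 to 2 with 1 array left out. Against the other hair growth lines, only the groups compared gave 159 genes higher and 4 core hair genes lower, and leaving out 1 array gave 125 to 341 genes higher (lowest without mrh3 replicate 1, highest without lrx1 replicate 2), 158 to 244 lower and 3 to 12 core hair genes lower. The count for rhd2 was 43 with only the groups compared, 438 at the unadjusted p and 118 to 307 with 1 array left out, and that for csld3 was 172 with only the groups compared and 452 to 1843 with 1 array left out. The cause of these shifts was not tested.

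Among the genes for which alternatives were run, the signs that turned were all of genes not called against WT. With the array series as a factor, GL2 was at -0.37, COW1 at -0.18 and MRN1 at 0.23, and with numbered arrays only GL2 was at -0.64 and MRN1 at 0.47. With 1 array left out, RHD6 ran from -0.075 to 0.51, GL2 from -0.12 to 0.52, COW1 from -0.28 to 0.19, CYP71A16 from -0.28 to 0.067, MRN1 from -0.43 to 0.15, AT5G47950 from -0.37 to 0.16 and MRH3 from -0.55 to 0.24.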
